A study of Mus musculus with 412 samples.

Results

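Neurotrophins and the ligands of the GDNF family govern the survival, growth and sensitivity of sensory neurons of the dorsal root ganglia (DRG). Neurotrophins act through Trk tyrosine kinases, aided by the shared receptor Ngfr, while each GDNF family ligand binds a co-receptor of the Gfra family, held to the membrane by a lipid anchor, and the complex then engages the tyrosine kinase Ret. Which of these receptors a mature sensory neuron carries differs with its class, so that combinations of them have long been used to tell classes of DRG neurons apart.

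Described here are 9 receptor genes of these families, chosen by name and found among the 45513 genes of the deposited expression table through their Ensembl identifiers on mouse genome build GRCm38: Ntrk2, Ntrk3, Ngfr, Sort1, Ret, Gfra1, Gfra2, Gfra3 and Gfra4. All 9 were detected in neurons of both spinal segments and all 9 were compared by share of neurons. By ratio of means 7 were compared, since Ntrk3 and Sort1 fell below the minimum mean.

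The study profiled RNA of single neurons that supply the mouse colon, to learn how many kinds there are and how they differ along the spinal cord. In C57BL/6J mice, Fast Blue, a dye carried back along axons to the cell body, was injected into the colon wall, and 3 to 10 days later DRG were taken from the thoracolumbar (TL, T10 to L1) and the lumbosacral (LS, L5 to S2) levels and dissociated into separate cultures, from which labelled neurons were picked by hand. Of 412 samples, 399 were single neurons (203 TL and 196 LS) and 13 were controls of bath fluid, spread over 6 plates. The deposited table held 325 neurons, 167 of TL and 158 of LS origin. Neither the remaining 74 nor the controls were analysed here. Both groups were of the same strain, had the same surgery and dye, and received no other treatment named in the labels. Age and sex were not given in the sources used here.

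Depth was high for single neurons. Read numbers recovered from the values were 485751 to 10499482 per TL neuron (median 2709639) and 416007 to 12058968 per LS neuron (median 3202776.5). Between 6291 and 17102 genes were above 0 in a TL neuron (median 13497) and between 6472 and 17193 in an LS neuron (median 13975.5).

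A level is given here on a linear scale that is corrected for transcript length, with the levels of all genes of a neuron summing to 1000000, so that genes as well as neurons can be compared. A neuron with a level of 10 or more was counted as expressing a gene. Gfra3 and Ntrk2 were the receptors with the fewest and the most reads at the threshold. That level stood for a median of 24.7 reads over the 200 neurons with Gfra3 above 0. For Ntrk2 it was 171 reads over 261 such neurons. These numbers rest on transcript lengths that for Ntrk2, Ntrk3, Ret, Gfra2 and Gfra3 were inferred from the values, as 13806 bases for Ntrk2 (annotated 19292) and 5358 for Ntrk3 (annotated 30170). Each share of neurons is followed by its 95% interval by the exact method of Clopper and Pearson, a measure of counting error and of nothing else. Where 0 neurons were counted, the limit given is instead the share that 3 neurons would make. As the labels name neither mouse nor culture, TL and LS are 1 sample each, and a difference of segment cannot be told apart from a difference of mice or culture. No test was therefore run. Values are also given within the 5 plates that held neurons of both segments. These plates are not replicates of a segment, as the labels tie none of them to a mouse or culture.

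The neurons carried the markers of their label: all 7 neuronal marker genes examined were expressed in most neurons, and Tubb3, Snap25, Uchl1 and Prph in 325 of 325. Markers of satellite glia, the cells that wrap DRG neurons, were also present. The summed level of 10 such genes was 2594 at the median of TL neurons, 1499 at that of LS neurons, and 97871 at most, with Apoe the most abundant (mean 5851 in TL and 2674 in LS). The median was 0 for 1 of the 10 genes in TL and for 5 in LS. Of 5 genes of myelinating Schwann cells, Pmp22 made up most of the summed level (mean 740 of 826 over all neurons). The median of that sum was 1062 for TL and 467 for LS neurons. Mag and Prx, which define those cells, had medians of 0. Of 5 fibroblast genes, Dcn was expressed in 43.4% of neurons (mean 160.4, median 3.13), while the means of Col1a1 (0.363), Col1a2 (1.97), Lum (1.80) and Pdgfra (0.158) were near 0. The mean of Dcn was 58.1 in TL and 268 in LS neurons. The markers of macrophages and of endothelium were near 0, with median summed levels of 2.68 and 0.993, although endothelial genes summed to 21266 in 1 TL neuron.

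The 9 receptors covered a wide range of levels. The mean over 325 neurons was highest for Ngfr (1461), followed by Gfra3 (666), Ret (178), Gfra4 (65.5), Ntrk2 (31.8), Gfra1 (21.1), Gfra2 (14.2), Sort1 (4.66) and Ntrk3 (3.22). The order changed by segment in its lower part: by mean, TL had Gfra2 (24.0) above Gfra1 (18.6) and Ntrk3 (5.91) above Sort1 (3.75), whereas LS had Sort1 (5.63) above Gfra2 (3.88). By median over all neurons, Sort1 (3.00) passed Gfra2, whose median was 0 like that of Ntrk3. The levels of the latter pair were concentrated in few neurons, as the 33 neurons with the highest levels held 92.0% of all Ntrk3 and 91.8% of all Gfra2. The ranges between lower and upper quartile overlapped for each pair of neighbours in the order of means except for Gfra4 and Ntrk2 and for Sort1 and Ntrk3. For every receptor the lowest neuron of each segment was at 0, so the ranges of TL and LS overlapped throughout.

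**Figure D1:**
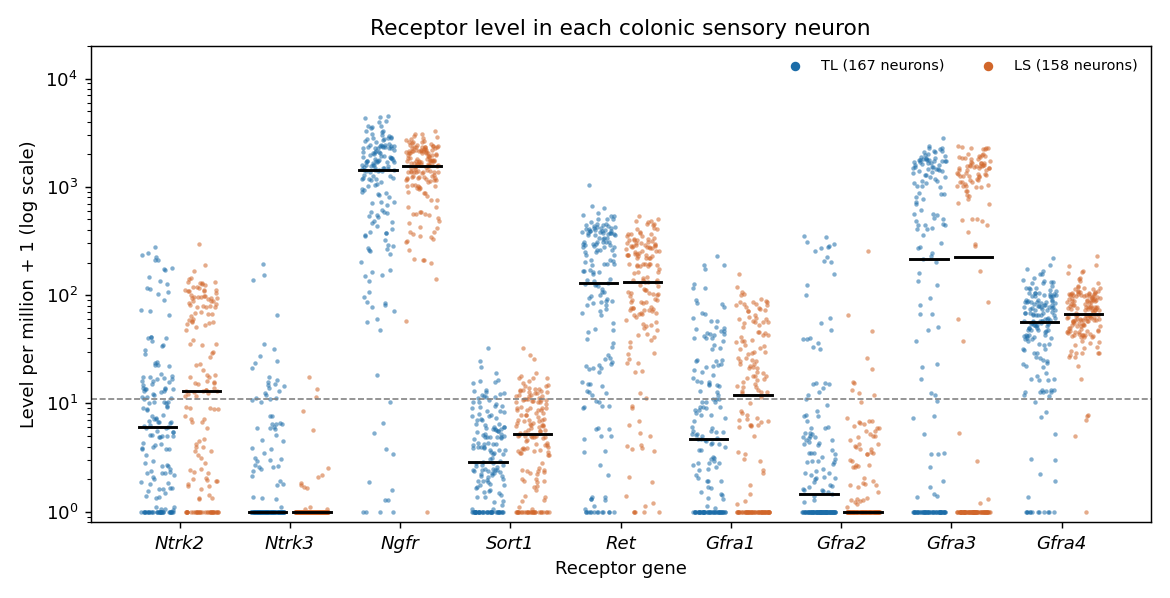
Level of each of the 9 receptors in every neuron, plotted as level + 1 on a log axis, for 167 TL and 158 LS neurons; points are neurons, black bars are medians and the dashed line marks a level of 10. Ngfr is high in nearly all neurons (medians 1423 and 1567), whereas Gfra3 is at 0 in 125 neurons, at 1000 or more in 119 and between these in the rest.

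By share of neurons, Ntrk2, Ngfr, Gfra1 and Gfra4 were more frequent in LS and Ntrk3 and Gfra2 in TL, each with intervals that did not overlap. The 6 receptors fell into 4 with LS higher, where the same held for 9.64% of the 12794 genes compared, and 2 with TL higher, against 4.66% of genes. Shares in LS were raised in general: 63.6% of all genes had the higher share there, with a median difference of 1.72 percentage points. No receptor differed by 20 percentage points or more in either direction, a size reached by 3.28% of genes with LS higher and by 1.41% with TL higher. In other settings some did: Ntrk2 reached 24.7 points without plate 4, Sort1 20.4 at a level of 5 and Gfra1 20 without plate 6. The mean level could be compared by ratio for 7 receptors with a mean of 10 or more in either segment. Of these 0 were 2-fold or more higher in LS, where 2.58% of 7752 genes were, and 1, Gfra2, was so in TL, where 3.35% of genes were.

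Ntrk2 encodes TrkB, the receptor for brain-derived neurotrophic factor and neurotrophin-4 (ENSMUSG00000055254, chromosome 13, 58806569 to 59133970). Its level ranged from 0 to 276 in TL with a median of 5.10, and from 0 to 294 in LS with a median of 12.1. It was expressed by 60 of 167 TL neurons (35.9%, 28.7 to 43.7) and by 87 of 158 LS neurons (55.1%, 47.0 to 63.0), and the mean level was 1.59-fold higher in LS. Within plates the share was higher in LS in 4 of 5, with 29.6 to 48.6% in TL and 44.0 to 63.2% in LS, and the same in plate 4. The difference of 19.1 points depended on the scale and the plates, from 2.77 to 24.7 points over 16 alternatives, the highest without plate 4. It was 11.1 points at a level of 5, 3.65 points on reads not corrected for length and 2.77 points after thinning to 500000 reads per neuron, where 5 reads of any length of transcript counted as expressed, and the intervals overlapped in each of these and without plate 5 or plate 6. In all, they overlapped in 8 of 16 alternatives. Without rescaling, the ratio of means turned to 0.883.

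Ntrk2 moved with the glial markers. Its Spearman rho with their summed level was 0.68 over 167 TL and 0.63 over 158 LS neurons, which share library, depth and picking within each neuron. Of the 10 glial genes, S100b is also made by many large sensory neurons, and with the other 9 alone rho was 0.62 in TL and 0.41 in LS. All 325 neurons were ordered by those 9 genes and cut into 4 parts. From the lowest part up, which held 31, 33, 51 and 52 TL neurons, the share of these with Ntrk2 was 22.6%, 9.09%, 21.6% and 75.0%. In LS, with 51, 48, 30 and 29 neurons, it was 39.2%, 35.4%, 73.3% and 96.6%, so LS was higher in each. Among the neurons at or below the median of the 10 genes, 18.6% of TL and 35.5% of LS neurons had Ntrk2, and their intervals overlapped. That cut also follows S100b, which was opposed to Gfra3 (rho -0.61 in TL and -0.81 in LS): Gfra3 was expressed in 96.3% of LS neurons in the lowest of 4 parts by the 10 genes and in 58.8% by the 9. The part of glial RNA in the Ntrk2 shares was not tested.

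Ntrk3 encodes TrkC, the receptor for neurotrophin-3 and a marker of proprioceptors and of large mechanoreceptors (ENSMUSG00000059146, chromosome 7, 78175959 to 78738012). Its median was 0 in both segments, and the highest level was 194 in TL and 16.6 in LS. It was expressed by 23 TL neurons (13.8%, 8.94 to 19.9) and 3 LS neurons (1.90%, 0.393 to 5.45), and the means were 5.91 in TL, where 17 neurons held 81.7% of the summed level, and 0.372 in LS. TL was higher in 5 of 5 plates, with shares of 7.41 to 22.7% against 0 to 2.70%. Among the 16 alternatives, the intervals overlapped at a threshold of 50 and in the neurons at or below the median of the 10 glial genes. The summed Schwann cell genes, mostly Pmp22, moved with Ntrk3. The median was 1378 in TL neurons with Ntrk3 and 915 in those without. The part of these genes in the result was not tested.

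Ngfr encodes the low-affinity receptor shared by all neurotrophins (ENSMUSG00000000120, chromosome 11, 95568818 to 95587735). Levels ran from 0 to 4470.5 in TL with a median of 1423 and from 0 to 3255 in LS with a median of 1567. Expression was near universal in LS, at 157 of 158 neurons (99.4%, 96.5 to 100.0), and reached 154 of 167 in TL (92.2%, 87.1 to 95.8). The means of 1409 and 1515 differed 1.07-fold, but low levels were more common in TL: the lower quartile was 379.5 in TL and 1011 in LS, and 60.5% of TL and 75.3% of LS neurons were at 1000 or more. Without plate 3, 5 or 6, at a level of 5 or after thinning the intervals overlapped. Schwann cell genes, mostly Pmp22, had a median sum of 962 in TL neurons with Ngfr and 1757 in the 13 without. Their sum had a rho of 0.037 with Ngfr in TL, and their part was not tested.

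Sort1 encodes sortilin, which pairs with Ngfr in binding unprocessed neurotrophins and also sorts proteins inside the cell (ENSMUSG00000068747, chromosome 3, 108284082 to 108361511). It was low, with medians of 1.91 in TL and 4.22 in LS and highest levels of 31.8 and 31.3. The threshold was met by 18 TL neurons (10.8%, 6.51 to 16.5) and 31 LS neurons (19.6%, 13.7 to 26.7), with overlapping intervals, though LS was higher in 5 of 5 plates. The difference of 8.84 points was 20.4 at a level of 5, and the intervals lay apart there and in 5 of the 16 alternatives in all. On values that were not rescaled it was -1.58 points. TL neurons with Sort1 had fewer genes above 0 (median 11294) than those without (13654), whereas in LS the medians were 14227 and 13831. The summed neuronal markers had a TL median of 11480 with Sort1 and 14889 without. The part of depth in the Sort1 shares was not tested.

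Ret encodes the kinase through which GDNF family ligands signal (ENSMUSG00000030110, chromosome 6, 118151745 to 118197718). Its level ranged from 0 to 1048 in TL with a median of 129.7, and from 0 to 533 in LS with a median of 132. Ret was expressed by 131 TL neurons (78.4%, 71.4 to 84.4) and 137 LS neurons (86.7%, 80.4 to 91.6), whose intervals overlapped, and LS was higher in 3 plates and TL in 2. LS minus TL, 8.27 points, ran from -7.89 to 26.2 points within plates. Over the 16 alternatives it was 2.90 to 13.2 points, and the intervals lay apart in 1. The mean was instead higher in TL, at 189 against 166, and so in 4 of 5 plates. Neurons with Ret also had more genes above 0 (median 13880) than neurons without it (11095).

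Gfra1 encodes the preferred co-receptor of GDNF (ENSMUSG00000025089, chromosome 19, 58235604 to 58455909). Levels ran from 0 to 228 in TL with a median of 3.73, and from 0 to 156 in LS with a median of 10.99. It was expressed by 57 TL neurons (34.1%, 27.0 to 41.9) and 80 LS neurons (50.6%, 42.6 to 58.7), a difference of 16.5 points with the same direction in 5 of 5 plates. The gap between the intervals was narrow and closed in 13 of the 16 alternatives. The summed Schwann cell genes, mostly Pmp22, had a median of 1419.6 in TL neurons with Gfra1 and 839.9 in those without. The 9 satellite glia genes without S100b had one of 714 and 133 in LS. The part of both sets was not tested. The summed fibroblast genes, nearly all Dcn (mean 268.4 of 270.8 in LS), ran the other way. In LS the sum had medians of 1.90 with Gfra1 and 193 without, also not tested.

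Gfra2 encodes the preferred co-receptor of neurturin (ENSMUSG00000022103, chromosome 14, 70890120 to 70979838). The median was 0.468 in TL and 0 in LS, with highest levels of 351 and 256. It was expressed by 31 TL neurons (18.6%, 13.0 to 25.3) and 10 LS neurons (6.33%, 3.08 to 11.3), and TL was higher in 5 of 5 plates. Levels of 100 or more were found in 13 TL neurons and 1 LS neuron, and the means were 24.0 and 3.88. At a level of 5, without plate 2 or plate 5, without the 11 neurons richest in glial RNA and in neurons at or below the median of the 10 glial genes, the intervals of the shares overlapped. The Schwann cell genes, mostly Pmp22, had a median sum of 1499.6 in TL neurons with Gfra2 and 909 in those without. Their part was likewise not tested.

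Gfra3 encodes the co-receptor of artemin, known from peptidergic nociceptors (ENSMUSG00000024366, chromosome 18, 34689898 to 34720387). Levels were 0 in 54 TL and 71 LS neurons and 1000 or more in 55 TL and 64 LS neurons. Between these, 33 TL and 16 LS neurons lay from 100 to below 1000, 12 and 3 from 10 to below 100, and 8 and 2 from 1 to below 10. The medians were 214 in TL and 223 in LS, with highest levels of 2849 and 2380.3. Gfra3 was expressed by 100 TL neurons (59.9%, 52.0 to 67.4) and 83 LS neurons (52.5%, 44.4 to 60.5), with overlapping intervals in each of the 16 alternatives. LS minus TL turned to 1.66 points in 1 of these. Within plates it ran from -32.4 to 9.53 points, with TL higher in 4 and LS in 1. The mean was higher in LS, at 689 against 645. The summed fibroblast genes were nearly all Dcn (mean 160.4 of 164.6 over all neurons). The sum had medians of 32.3 with Gfra3 and 2.52 without in TL, and 164 and 0.993 in LS. The part of these genes was not tested.

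Gfra4 encodes the co-receptor of persephin (ENSMUSG00000027316, chromosome 2, 131039632 to 131043088). It was widespread at moderate level, from 0 to 218 in TL with a median of 56.0 and from 0 to 231 in LS with a median of 66.0. It was expressed by 146 TL neurons (87.4%, 81.4 to 92.0) and 153 LS neurons (96.8%, 92.8 to 99.0). Neurons without Gfra4 had fewer genes above 0 (median 8635) than neurons with it (13831), and the part of depth in the difference was not tested. The intervals overlapped once neurons with few genes or much mitochondrial RNA were left out, and also without plate 3, 5 or 6 or without the 11 neurons richest in glial RNA.

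**Figure D2:**
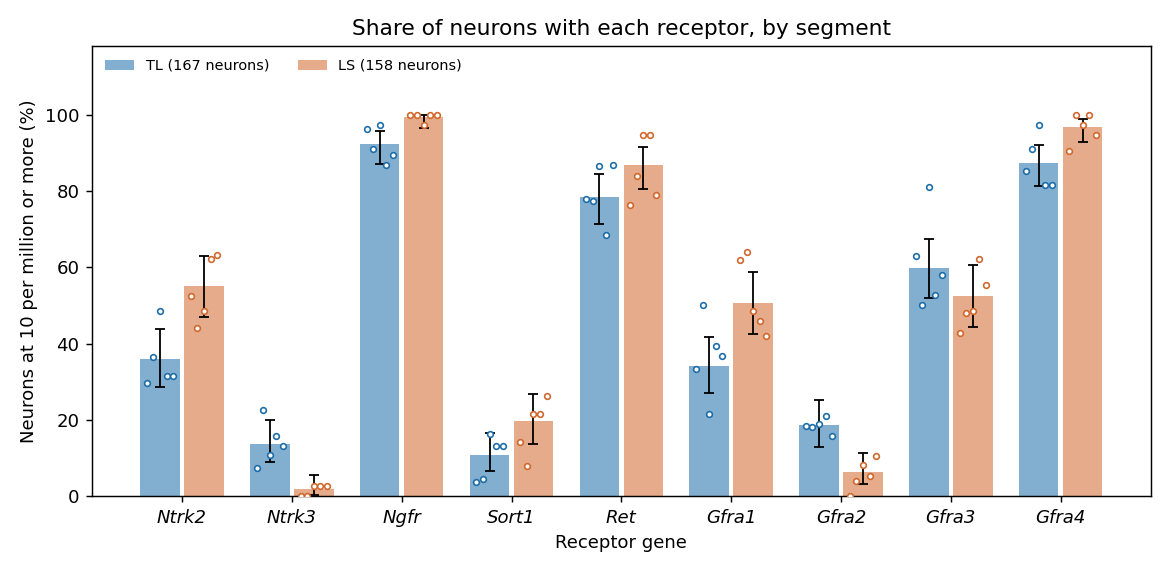
Share of neurons with a level of 10 or more for each receptor in TL (167 neurons) and LS (158 neurons); bars are pooled shares, error bars exact 95% intervals and open circles the shares within plates 2 to 6. Ntrk3 falls from 13.8% in TL to 1.90% in LS and Gfra2 from 18.6% to 6.33%, whereas Ntrk2 goes from 35.9% to 55.1% and Gfra1 from 34.1% to 50.6%.

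Combinations were next read in single neurons. A neuron expressed 1 to 7 of the 9 receptors in TL (median 4) and 2 to 7 in LS (median 5). Of the 512 possible patterns 61 were found, 51 in TL and 27 in LS, and 17 of them in both segments. Those 17 held 75.4% of neurons, and 34 patterns were held by 1 neuron each. LS neurons were less varied: the 5 most frequent patterns of a segment covered 70.3% of LS and 47.3% of TL neurons.

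A single pattern led in both segments, at a like share over all plates. Ngfr, Ret, Gfra3 and Gfra4 without the other receptors were found together in 46 TL neurons (27.5%, 20.9 to 35.0) and 43 LS neurons (27.2%, 20.4 to 34.9). Within plates LS minus TL ran from -21.1 to 10.8 points for it, with LS higher in 3 and TL in 2. In TL the next pattern was Ntrk2, Ngfr, Ret, Gfra3 and Gfra4, in 12 neurons (7.19%). The next in LS, Ntrk2, Ngfr, Ret, Gfra1 and Gfra4, was held by 5 TL neurons (2.99%, 0.979 to 6.85) and 30 LS neurons (19.0%, 13.2 to 26.0), with LS higher in 5 of 5 plates. When Sort1 joined these 5 receptors the pattern was found in 18 LS neurons (11.4%, 6.89 to 17.4) and in 0 of 167 TL neurons, which allows a share of up to 1.80%. Patterns seen in TL alone were small, such as Ntrk3, Ngfr, Ret, Gfra1 and Gfra4 in 5 neurons and Ret, Gfra1 and Gfra2 in 5.

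**Figure D3:**
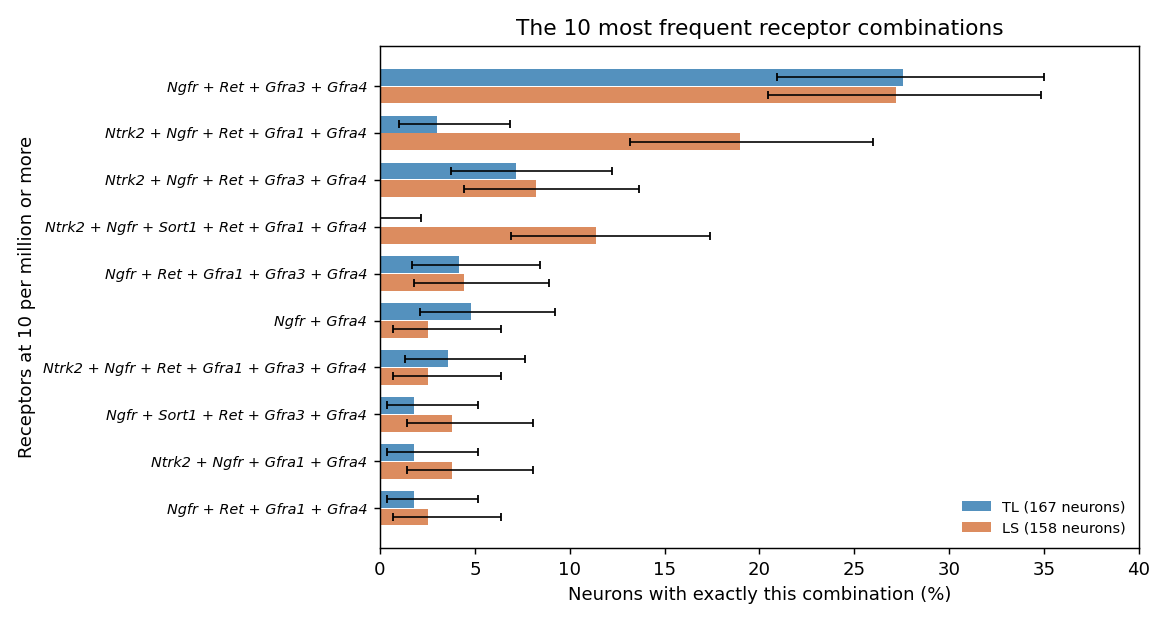
Share of TL (167) and LS (158) neurons that hold exactly each of the 10 most frequent receptor combinations, with exact 95% intervals. The leading combination has like pooled shares in both segments (27.5% and 27.2%), while the 2 combinations with Ntrk2, Ret and Gfra1 but no Gfra3 that rank next highest in LS reach 19.0% and 11.4% there and 2.99% and 0 in TL.

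Some Gfra gene was expressed in 321 of 325 neurons, so Ret could seldom be without one. Ret was found with at least 1 of Gfra1 to Gfra4 in 129 TL neurons (77.2%, 70.1 to 83.4) and 137 LS neurons (86.7%, 80.4 to 91.6), and without any in 2 TL and 0 LS neurons, the latter allowing up to 1.90%. A Gfra gene without Ret was more common, in 34 TL (20.4%) and 21 LS neurons (13.3%). Only 2 TL neurons had neither. The co-receptor with the highest level was Gfra3 in 94 of 163 TL neurons with any Gfra gene (57.7%) and 80 of 158 LS neurons (50.6%). Gfra4 came next in both, in 43 TL (26.4%) and 51 LS neurons (32.3%). In the remaining places the segments parted, with Gfra1 highest in 5.52% of TL and 15.8% of LS neurons and Gfra2 in 10.4% and 1.27%.

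Ret rose with Gfra3. Over 325 neurons their levels had a Spearman rho of 0.727, between 0.483 and 0.881 within plates in TL and between 0.713 and 0.854 in LS, in neurons that share depth for both genes. Ret was expressed in 95.0% of TL neurons with Gfra3 and 53.7% without, and in 98.8% and 73.3% in LS.

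In LS, Ntrk2 and Gfra3 were mostly found in different neurons, and in TL this was less so. Gfra3 was expressed in 22 of 87 LS neurons with Ntrk2 (25.3%, 16.6 to 35.7) and in 61 of 71 without it (85.9%, 75.6 to 93.0). In TL the shares were 33 of 60 (55.0%, 41.6 to 67.9) and 67 of 107 (62.6%, 52.7 to 71.8). Their levels had a rho of -0.67 over LS neurons, from -0.804 to -0.535 within plates, and of -0.11 over TL neurons, from -0.310 to 0.131. The TL rho was below 0 in 4 plates and above 0 in 1. Neurons with Ntrk2 and no Gfra3 made up 16.2% of TL (27, 10.9 to 22.6) and 41.1% of LS (65, 33.4 to 49.2), higher in LS by 17.3 to 37.6 points in the 5 plates. Neurons with Gfra3 and no Ntrk2 were 40.1% of TL and 38.6% of LS over all plates. Within plates LS minus TL ran from -13.2 to 7.64 points for them, with LS higher in 2 and TL in 3. Neurons with neither were 24.0% of TL (17.7 to 31.2) and 6.33% of LS (3.08 to 11.3). For neither, LS minus TL ran from -36.8 to 5.41 points within plates, with TL higher in 4 of 5 and LS in plate 4. In TL the share of Gfra3 with Ntrk2 minus that without it, -7.62 points over all neurons, was -34.9 points at a threshold of 50, -39.4 points in neurons at or below the median of the 10 glial genes, a cut that S100b also shapes, and 20.5 points in plate 5 alone. As Ntrk2 rose with glial markers, their part in the contrast of segments was not tested.

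**Figure D4:**
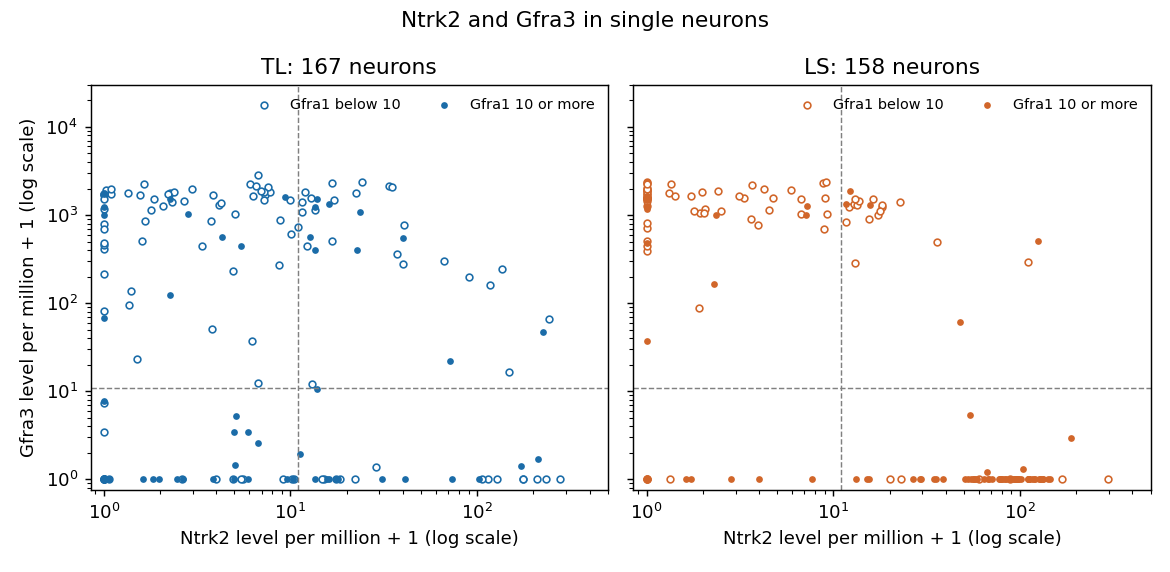
Ntrk2 level against Gfra3 level, both as level + 1 on log axes, in 167 TL (left) and 158 LS neurons (right); each circle is a neuron, filled where Gfra1 is at 10 or more, and dashed lines mark a level of 10. In LS, 65 neurons lie in the lower right with Ntrk2 and no Gfra3, most of them with Gfra1, and 22 in the upper right with both; the TL counts are 27 and 33.

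Gfra1 stood on the side of Ntrk2 in LS. It was expressed in 64 of 87 LS neurons with Ntrk2 (73.6%) and 16 of 71 without (22.5%), against 38.3% and 31.8% in TL. Both genes moved with S100b in LS, a gene also made by many large sensory neurons, with a rho of 0.65 for Gfra1 and 0.64 for Ntrk2. With the sum of the other 9 glial genes, rho was lower, at 0.21 for Gfra1 and 0.41 for Ntrk2. In the 4 parts by those 9 genes the LS share of Gfra1 was 41.2%, 41.7%, 70% and 62.1%, from the lowest up. The part of glial RNA in their joint expression was not tested. Neurons with both made up 13.8% of TL (23, 8.94 to 19.9) and 40.5% of LS (64, 32.8 to 48.6), with LS higher in 5 of 5 plates. Gfra1 and Gfra3 were opposed in both segments: Gfra3 was expressed in 18.8% of LS neurons with Gfra1 and 87.2% without it, and in 35.1% and 72.7% of TL neurons. Within plates their rho was between -0.766 and -0.465 in LS and between -0.499 and -0.276 in TL.

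Among the neurotrophin receptors, Ntrk2 alone was expressed in 50 TL and 84 LS neurons, Ntrk3 alone in 13 TL and 0 LS neurons (up to 1.90%), and both in 10 and 3. Neither was found in 94 TL (56.3%) and 71 LS neurons (44.9%). Ngfr was missing from only 3 TL neurons and 1 LS neuron with Ntrk2 or Ntrk3. Ngfr was found in 49 of 49 neurons with Sort1, beside 311 of all 325 neurons. Sort1 was more frequent with Ntrk2 than without, at 28.7% against 8.45% in LS and 23.3% against 3.74% in TL. Genes above 0 were fewer in TL neurons with Sort1 than without (medians 11294 and 13654), but not in LS (14227 and 13831). Ntrk2, Gfra1 and Sort1 met in 3 TL neurons (1.80%) and 21 LS neurons (13.3%).

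The receptors were then set against genes that mark subtypes and classes of sensory neuron. Hpse, Ntm, Mrgprd, Trpa1, Cbln2, Fam19a1 and Smr2 were chosen as subtype markers by the study on these same libraries, so the shares below describe them and are not independent evidence.

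Gfra2 and the lack of Ngfr went together in neurons with Mrgprd, a receptor gene of nonpeptidergic nociceptors. Of 15 such TL neurons, 15 had Ret, 14 had Gfra1 (median level 47.2) and 14 had Gfra2 (median 223), whereas 3 reached the threshold for Ngfr (median 2.44), 2 had Gfra3 and 0 had Sort1 (up to 20% with a count of 0). Seen from the other side, of the 13 TL neurons without Ngfr 12 had Mrgprd, 13 had Ret (median 429.8), 11 had Gfra1 and 11 had Gfra2. Gfra2 was found in 84.6% of them and in 13.0% of the 154 TL neurons with Ngfr. The summed Schwann cell genes, mostly Pmp22, had a median of 1757 in the 13 and 962 in the 154. Their part was not tested. The 1 LS neuron without Ngfr also held Mrgprd and had the highest Gfra2 level of that segment, 256.

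Ntrk3 was expressed only in neurons with Piezo2, the channel of light touch and proprioception. Piezo2 was broader, in 73 of 167 TL (43.7%) and 72 of 158 LS neurons (45.6%), most of them without Ntrk3. All 23 TL and 3 LS neurons with Ntrk3 had Piezo2, and 23 of the TL neurons had Nefh, the heavy neurofilament, which 87.4% of all TL neurons had. Of the 23, 22 had Ngfr, 12 had Ret, 12 had Gfra1, 8 had Gfra2 and 6 had Gfra3. Ntrk3 was more frequent without Ret (30.6%) than with it (9.16%) in TL, and more frequent without Gfra3 (25.4%) than with it (6.00%).

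Piezo2 itself went with Gfra1 and against Gfra3. In LS, Gfra1 was expressed in 90.3% of neurons with Piezo2 and 17.4% without, Ntrk2 in 83.3% and 31.4%, and Gfra3 in 9.72% and 88.4%. In TL the same shares were 60.3% and 13.8% for Gfra1 and 24.7% and 87.2% for Gfra3, but 39.7% and 33.0% for Ntrk2. Gfra3 was found where the channels of nociceptors were. It was expressed in 81.8% of TL neurons with Trpa1 and 17.5% without, and in 95.0% and 26.5% in LS. For Trpv1 the values were 78.3% and 12.8% in TL and 71.9% and 2.27% in LS.

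Of the 36 TL neurons that lacked Ret, 36 had Nefh and 25 had Piezo2 (69.4%), beside 87.4% and 43.7% of all TL neurons. Of the same 36, 19 had Fam19a1 and 11 had Ntrk3, while 3 had Trpa1. Of 34 TL neurons with Fam19a1, which encodes a small secreted protein, 15 had Ret, 20 had Gfra1, 12 had Ntrk3, 5 had Gfra3 and 34 had Gfra4. Of 12 TL neurons with Cbln2, a secreted organiser of synapses, 11 had Ntrk2 (median 148), 7 had Ntrk3, 6 had Sort1 and 0 had Gfra3, which allows up to 25%. In these, Ntrk2 was expressed by 5 of the 6 neurons with less and by 6 of the 6 with more glial RNA.

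Hpse and Ntm reached the threshold in 0 of 167 TL neurons (up to 1.80%), with TL means of 0.243 and 0.363, and in LS they went with different receptors. Of 44 LS neurons with Hpse, the gene of heparanase, 44 had Ngfr, 42 had Ntrk2 (median 94.2), 42 had Gfra1 (median 54.7), 38 had Ret, 20 had Sort1, 1 had Gfra3 and 0 had Gfra2 (up to 6.82%). Among them Ntrk2 was expressed by 20 of the 22 neurons with less glial RNA and 22 of the 22 with more, at medians of 83.5 and 99.0. Of 48 LS neurons with Ntm, which encodes the adhesion molecule neurotrimin, 48 had Ret (median 231), 41 had Gfra3 (median 1100.3), 23 had Ntrk2 and 10 had Gfra1. Here Ntrk2 and Gfra1 moved with glial RNA by the 9 genes. For Ntrk2, 4 of the 24 neurons with less of it (16.7%) and 19 of the 24 with more (79.2%) reached the threshold, at medians of 1.28 and 13.6. For Gfra1 it was 1 of 24 (4.17%) and 9 of 24 (37.5%). Gfra3 ran the other way, at 23 of 24 (95.8%) with less and 18 of 24 (75.0%) with more glial RNA. The part of glial RNA in these shares was not tested.

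Of 8 ligand genes of these receptors, 2 were expressed in 5% or more of neurons of a segment. Bdnf, the ligand of Ntrk2, was found in 144 TL neurons (86.2%) and 132 LS neurons (83.5%), at medians of 45.2 and 40.0, with LS higher in 3 and TL in 2 plates. Nrtn, which encodes neurturin, was expressed by 10 TL neurons (5.99%, 2.91 to 10.7) and 40 LS neurons (25.3%, 18.7 to 32.8), higher in LS by 2.91 to 24.9 points in 5 of 5 plates. Among neurons with Gfra2, its preferred co-receptor, Nrtn was found in 4 of 31 in TL (12.9%) and 3 of 10 in LS (30%), and among those without Gfra2 in 4.41% and 25%, with overlapping intervals in both. In LS, Nrtn was expressed in 42.5% of neurons with Ntrk2 and 4.23% without, in 40.0% with Gfra1 and 10.3% without, and in 2.41% with Gfra3 and 50.7% without. The other 6 ligands were expressed by at most 3.16% of the neurons of a segment.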

How the data were processed

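Libraries were made from polyA RNA of single neurons with Smart-seq2 and sequenced as paired reads without molecular identifiers. The submitters' processing notes name bcl2fastq 2.15.0.4, STAR 2.4.1, featureCounts 1.4.4 and GRCm38.p3. The authors deposited log2 values per gene and neuron, corrected for library and transcript length, with 1 added before the log. Columns recorded under other hold the same deposited values. Here each value was turned back to a linear level, by taking 2 to its power and subtracting 1, and rescaled to 1000000 per neuron. Names for 44671 genes came from GENCODE M21, where exons of Sort1 and Gfra1 share 4.47% and 7.60% of bases with an antisense gene and those of Gfra4 share 3.70% with a microRNA; libraries kept no strand. Reads were recovered from the values: with annotated lengths 65.0% were whole within a relative tolerance of 1e-06. For 8712 genes, 760 of them above 0 in only 1 or 2 neurons, the length was chosen to make the values whole, which is no check on these.

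Genes past a rule were counted among those with a mean of 10 or more in a segment (ratios) or expressed in 5% or more of its neurons (shares). Genes were named by rule: the 9 receptors, the 3 genes nearest each by Spearman rho (some are not reported here), fixed lists of ligands, relatives, adaptors and lineage factors, and cell type markers. Members and lists were chosen with earlier results of these data known. Alternatives covered threshold, scaling, depth, glial RNA, low-quality neurons and each plate. Python 3.11.15, numpy 2.4.6, pandas 2.3.3, scipy 1.17.1 and matplotlib 3.10.9 were used, with calculations tested on simulated data.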

Additional observations from a re-analysis of the deposited data

How the results depend on the processing

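For the receptor shares 16 alternatives were run. The restriction to neurons at or below the median of the 10 glial genes (low-marker neurons), a cut that S100b and with it Gfra3 also shape, and the counts of all genes with intervals apart under other settings, were chosen after seeing the data. Over all results and settings 532 values stayed within their error or within 1.5 times the value reported and 258 moved further. No value past a rule changed sign, and the cause was not tested. The 4 receptors with intervals apart and LS higher became 2 at a level of 5, in low-marker neurons, after thinning to 500000 reads and without rescaling, and 1 without plate 3, 5 or 6. The 2 with TL higher became 1 at a level of 5 or 50, without plate 2 or 5 and without the 11 neurons richest in glial RNA, and 0 in low-marker neurons. Receptors past 2-fold, without a minimum mean 0 with LS and 2 with TL higher, became 2 with LS higher for means of log2(level + 0.1), 1 with LS higher without low-quality neurons or without the 11 neurons, and 0 with TL higher for log2(level + 1).

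Over all genes, the 200 that were 2-fold higher in LS became 467 at 1.5-fold, 1117 with means of 1 or more, 5233 with all genes above 0 in both segments and 559 with log2(level + 0.1). The 260 higher in TL became 499, 1122, 3475, 147 with log2(level + 1) and 567 without rescaling. The 420 genes with LS shares 20 points higher became 1723 at 10 points and 221 at a level of 50, and the 181 with TL higher 748 and 94. Genes with intervals apart went from 1233 to 622 at a level of 50 and 807 without plate 5 (LS higher), and from 596 to 346 at 50 (TL higher).

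The share of Gfra3 with Ntrk2 minus that without, -60.6 points in LS, was -77.2 at a level of 20, -74.0 at 50, -46.9 on reads not corrected for length and -49.0 after thinning, and in plates 2 to 6 alone -90.0, -69.5, -73.1, -60.9 and -36.9. In TL, -7.62 became -34.9 at 50, -39.4 in low-marker neurons, and -19.6, -28.1 and 20.5 in plates 3, 4 and 5. Ret with any Gfra gene, 86.7% in LS, was 71.5% at 50, 91.8% on reads not corrected for length, 93.5% in low-marker neurons, 92.9% after thinning, 94.4% without low-quality neurons, and 76.2%, 94.6%, 94.6% and 78.9% in plates 2, 4, 5 and 6. In TL, 77.2% became 60.5%, 85.0%, 85.7% and 83.7% in the same first 4 settings, and 83.8%, 68.4% and 86.8% in plates 4, 5 and 6.

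No paired test was run, as the labels tie no neuron to a mouse, and differences within the plates that held both segments are given as values. Low-quality neurons were those beyond 3 median absolute deviations (under 10274 genes or over 9.35% mitochondrial RNA), which left 116 TL and 124 LS neurons. Thinning left out 1 TL and 3 LS neurons and counted 5 reads as expressed whatever the transcript length, so it changed the threshold as well as the depth. A level of 10 stands for more reads of a long transcript than of a short one.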

Other observations

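Genes that act beside or below the receptors were compared by the same rules. Of 14 relatives and co-receptors 11 could be compared by share, and 2 had intervals apart, both higher in LS, as 9.64% of all genes were: Sorl1, a sorting receptor related to Sort1 (71.9% of TL and 86.7% of LS neurons), and Ptprs, a receptor phosphatase (88.6% and 97.5%). Of 23 adaptors and signalling genes 21 were compared. Cblb, a ubiquitin ligase that acts on active receptor kinases, was 20 points or more higher in TL (35.9% against 15.2%), as 1.41% of all genes were. Intervals lay apart for 2 adaptors with LS higher and 2 with TL higher, beside 9.64% and 4.66% of all genes. Apart from Cblb they did so for Spry2, an inhibitor of growth factor signalling, which was higher in TL (85.0% against 71.5%), and for Ptpn11 (67.1% against 84.2%) and Plcg1 (61.1% against 79.1%), which relay the signal and were higher in LS. None of the 4 lineage factors compared, of 6, passed a rule, and no gene with a mean of 10 or more differed 2-fold in mean level among the ligands (1 compared), relatives (4), adaptors (17) and lineage factors (2). Genes below that mean were not compared by ratio.

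Genes whose levels ranked most like those of a receptor over the 325 neurons were sought among 11885 genes, as a description of neurons that share depth. For Gfra3 they included Tmem255a (rho 0.847) and Gpx3 (0.846), and for Ret they were Slc7a14 (0.835), Cadm1 (0.818) and Stt3b (0.816). Ngfr was nearest to Plbd2 (0.755), Maged1 (0.732) and Ptprs (0.723). Ntrk2 was nearest to Cd81 (0.811), Sparcl1 (0.744) and Cdh11 (0.702). Gfra1 had Tns1 (0.684), Tenm3 (0.606) and Slc38a1 (0.600). These were all nearer to Gfra1 in LS (0.755, 0.775 and 0.719) than in TL (0.588, 0.387 and 0.440). Those of Ntrk3 included Ppm1j (0.580) and Ccdc172 (0.522), and Sort1 had Cacna1h (0.508), Osbpl6 (0.506) and Slc6a6 (0.503). Lower values were found for Gfra2, with Cdh1 (0.481), Mlc1 (0.438) and Cdh11 (0.403), and for Gfra4, with 6330403K07Rik (0.446), Rims3 (0.426) and Mrap2 (0.419). The genes of both were all nearer in TL than in LS, as Cdh11 with Gfra2 (0.610 and 0.167) and Mrap2 with Gfra4 (0.522 and 0.231). With the segments pooled, a rho above 0.5 was reached by 395 genes with Ret, 325 with Gfra3, 252 with Ngfr and 56 with Ntrk2. It was reached by 0 genes with Gfra2 or Gfra4.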
